A study of Mus musculus with 4 samples.

Results

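The interleukin-1 and interleukin-18 family was followed as 10 genes in total RNA sequenced from ovalbumin-specific CD8 T cells of mouse tumours. The 10 were chosen by symbol from the 14082 genes listed for each library: the ligand genes Il1a, Il1b, Il1f9 and Il18, the antagonist gene Il1rn, the receptor chain genes Il1rap, Il1rl1, Il18r1 and Il18rap, and the adaptor gene Myd88. All 10 had a value in every library and passed the filter on low counts, which kept 13358 genes. The tumours were E.G7, a line made from EL4 mouse T lymphoma cells to carry ovalbumin, injected under the skin of mice aged 6 to 10 weeks. In the KO group the hosts carried floxed Smad4 alleles with a Cd8-cre transgene (2 libraries), and in the WT group they carried the floxed Smad4 alleles without Cre (2 libraries). Smad4 encodes the shared partner of the receptor-activated SMAD proteins of TGF-beta signalling. Cre expression follows the Cd8 promoter, so neither the other cells of the host nor the injected tumour cells need have lost Smad4, and the WT hosts carried no Cre to match. The labels do not say whether libraries of a group came from separate mice or from pooled mice, so each p-value rests on the spread among these libraries, and that spread may be technical.

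The cytokines of this family are alarm signals of innate immunity. IL-1 alpha and IL-1 beta bind the type 1 IL-1 receptor, which recruits the accessory chain encoded by Il1rap. The IL-1 receptor antagonist, the product of Il1rn, occupies the same receptor without signalling. IL-36 gamma, the product of Il1f9 (also named Il36g), uses its own receptor with the same accessory chain, as does IL-33, whose receptor ST2 is encoded by Il1rl1. IL-18 acts through a pair of chains, encoded by Il18r1 for binding and Il18rap for signalling, and drives interferon gamma production in activated T cells and NK cells. All of these receptors pass their signal through MyD88 to IRAK kinases, TRAF6 and NF-kappaB. Myeloid cells and epithelia are the usual sources of the ligands, while effector CD8 T cells are known for carrying the IL-18 receptor.

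The members lie in gene clusters, which the choice by symbol did not use. Il1f9 (chromosome 2 from 24186476 to 24193568, plus strand) and Il1rn (chromosome 2 from 24336853 to 24351494, plus strand) are separated by 143 kb in mm10. Il1a (chromosome 2 from 129299610 to 129309972) and Il1b (chromosome 2 from 129364570 to 129371139) sit side by side on the minus strand, 54.6 kb apart. Il1rl1 (chromosome 1 from 40429570 to 40465415), Il18r1 (chromosome 1 from 40465552 to 40500854) and Il18rap (chromosome 1 from 40515362 to 40551705) follow each other on the plus strand, with 136 bases between the first pair. Il1rap is on chromosome 16 (26581704 to 26730117, plus strand), Il18 on chromosome 9 (50554827 to 50581840, plus strand) and Myd88 on chromosome 9 (119335934 to 119341411, minus strand). Each is annotated as protein coding. The 250 bases before the start site are shown for Il1f9, the member with the steepest rise in KO, for Il1b, the ligand gene with the highest level, and for Il18rap, the member with the deepest fall. The sequences are from RefSeq on GRCm38.p6, the assembly called mm10, and read 5′ to 3′ on the gene's strand. Capitals mark matches, on either strand, to GAGGAA, a core of PU.1 sites, or TTNNGNAA, a loose form of C/EBP sites.
Il1f9, chr2:24186226-24186475, plus strand: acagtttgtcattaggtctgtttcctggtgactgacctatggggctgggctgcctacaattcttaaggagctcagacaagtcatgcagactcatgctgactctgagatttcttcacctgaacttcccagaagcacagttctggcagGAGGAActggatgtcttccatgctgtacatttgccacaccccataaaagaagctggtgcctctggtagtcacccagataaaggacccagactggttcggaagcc
Il1b, chr2:129371140-129371389, minus strand: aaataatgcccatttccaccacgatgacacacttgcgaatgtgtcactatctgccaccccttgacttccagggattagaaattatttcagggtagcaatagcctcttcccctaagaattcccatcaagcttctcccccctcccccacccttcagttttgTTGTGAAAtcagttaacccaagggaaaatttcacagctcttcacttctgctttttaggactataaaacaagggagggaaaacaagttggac
Il18rap, chr1:40515112-40515361, plus strand: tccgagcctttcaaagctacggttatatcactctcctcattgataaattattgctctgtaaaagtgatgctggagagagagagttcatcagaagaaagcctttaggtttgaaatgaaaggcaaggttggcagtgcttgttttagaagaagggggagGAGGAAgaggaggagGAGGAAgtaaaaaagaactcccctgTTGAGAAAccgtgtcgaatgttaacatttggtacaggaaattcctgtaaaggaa
Il1f9 held 1 match to GAGGAA, Il1b held 1 match to TTNNGNAA, and Il18rap held 2 matches to GAGGAA and 1 to TTNNGNAA. Among 32851 mouse promoter windows of the same length, 23.2% held GAGGAA and 36.9% held TTNNGNAA. The other letters searched were GGG and CC spaced by 5 bases for NF-kappaB (45.8% of windows), TGANTCA for AP-1 (6.75%), and GTCTAGAC and GGCGCC for SMAD proteins (0.167% and 9.59%). None of these 4 was found in the 3 windows shown. In windows of other members, NF-kappaB letters were found for Il1rn, Il1rap and Il18r1, and AP-1 letters for Il1a and Il1rn. These matches describe letters and were not tested as binding sites.

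The libraries held 24366540 to 26218277 counts each, so Il1rl1, the member with the lowest values, rests on 78 to 120 reads in each. Smad4, read as a check of the labels, had 29.3 and 40.3 CPM in KO, against 31.7 and 29.4 CPM in WT (CPM are counts scaled to library size with TMM factors). Its log2 fold change, KO over WT, was 0.19 (edgeR quasi-likelihood, Benjamini-Hochberg adjusted p = 0.397), so the gene-level count was not lower in the libraries labelled KO. It turned to -0.063 (edgeR adjusted p = 0.784) without KO replicate 2 and was 0.40 (edgeR adjusted p = 0.00806) without KO replicate 1. A gene-level count includes exons that Cre leaves in place and reads from other cells. Transcripts of T cells were present, with a deposited FPKM of Cd8a of 64.8 ± 1.42 in KO and 123 ± 2.86 in WT (SD, n = 2 each). Lyz2, the lysozyme gene of macrophages and neutrophils, had a higher level per length, at 8792 ± 391 FPKM in KO and 8835 ± 309 FPKM in WT, so the sorted samples also held myeloid RNA. In bulk samples fewer cells of a type and less RNA per cell cannot be told apart. Over all tested genes 21.2% were called at an edgeR adjusted p under 0.05, 10.1% higher and 11.0% lower in KO.

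Of the 10 members, 5 were higher in KO, 2 were lower and 3 did not pass. The share of all tested genes was 10.1% for higher and 11.0% for lower calls. The genes that rose were Il1a, Il1b, Il1f9, Il1rn and Il1rap. The product of Il1rap also serves the IL-33 receptor, and the others belong to the IL-1 and IL-36 arms of the family. The genes that fell were both chains of the IL-18 receptor. Il18, Il1rl1 and Myd88 did not pass. The median log2 fold change of the 10 was 0.25, against -0.0037 over all genes tested, and the members ranged from -1.50 for Il18rap to 2.57 for Il1f9. KO and WT libraries did not overlap for 7 members, 5 with KO above WT and 2 with KO below WT. Of all tested genes 59.8% had groups that did not overlap, 29.7% with KO above WT and 30.0% with KO below WT.

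**Figure D1:**
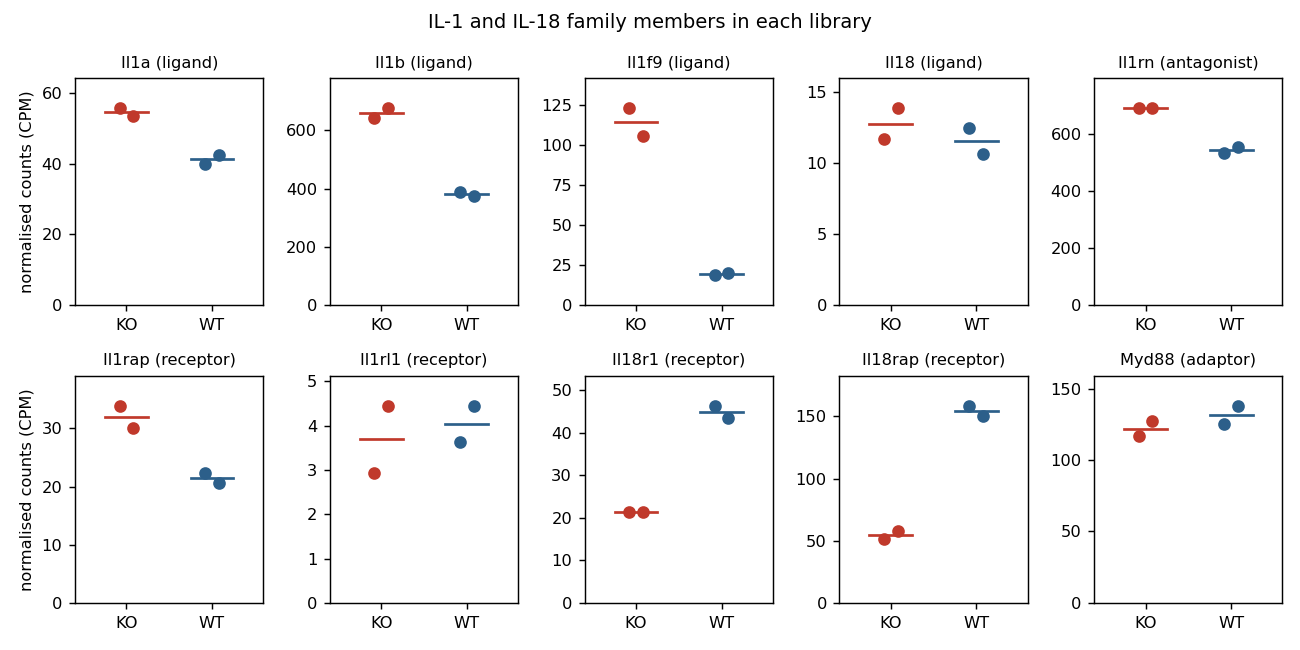
Normalised counts (CPM) of the 10 members in each library, KO left and WT right. Points are libraries and lines are group means. Il1f9 sits at 123 and 106 CPM in KO, above 18.6 and 20.0 CPM in WT, whereas Il18rap sits at 51.3 and 57.7 CPM in KO, below 159 and 151 CPM in WT.

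Il1f9, the IL-36 gamma gene, had the steepest rise among the members. It had 3282 and 2864 counts in the KO libraries, against 441 and 499 counts in the WT libraries. On the CPM scale this was 123 and 106 in KO, against 18.6 and 20.0 in WT. Both KO libraries lay above both WT libraries, and the gap was several times the spread within KO, the more variable group. The gene was 5.95-fold higher in KO, with a log2 fold change of 2.57 and a 95% confidence interval of 2.36 to 2.79 (edgeR adjusted p = 3.42e-09).

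Il1b, the gene of the secreted cytokine IL-1 beta that inflammasome caspases activate, had the highest level per length of the ligand genes and rose as well. Its values were 642 and 676 CPM in KO, against 387 and 373 CPM in WT. The groups did not overlap, and the rise was 1.73-fold (log2 fold change 0.79 ± 0.054 SE, edgeR adjusted p = 5.66e-07). Il1a, the gene of the cell-associated alarmin IL-1 alpha, had 55.7 and 53.3 CPM in KO, against 39.9 and 42.4 CPM in WT. It was 1.32-fold higher in KO (log2 fold change 0.40 ± 0.091 SE, edgeR adjusted p = 0.00686), and the groups did not overlap. The Il1a call was lost without WT replicate 1, with a log2 fold change of 0.36 (edgeR adjusted p = 0.0770, the highest over the alternatives, with a lowest of 0.000705). Exons of Il1a and Il1b overlap the antisense genes Gm14023 and Il1bos, and as the strandedness of the libraries is not given, reads from each pair cannot be told apart.

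Il18, whose product is also activated by caspase-1, did not pass. It had 11.7 and 13.9 CPM in KO, against 12.5 and 10.6 CPM in WT. The libraries of the groups interleave, and the log2 fold change was 0.14 (95% confidence interval -0.24 to 0.53, edgeR adjusted p = 0.624). The 4 libraries held 265 to 374 Il18 counts each.

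The antagonist gene Il1rn rose less steeply. Il1rn had 689 and 690 CPM in KO, against 531 and 553 CPM in WT. The KO libraries were nearly equal and both above WT, for a 1.27-fold rise (log2 fold change 0.35 ± 0.052 SE, edgeR adjusted p = 0.000449). Per length, the deposited FPKM of Il1rn was 0.342 and 0.326 of the summed FPKM of Il1a and Il1b in the KO libraries, against 0.430 and 0.460 in the WT libraries. Both KO ratios were thus below both WT ratios, a comparison of 2 against 2 libraries given as a description. The gene-level count does not separate the secreted form of the antagonist from its intracellular forms.

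Il1rap, the accessory chain shared by the IL-1, IL-33 and IL-36 receptors, had 33.9 and 30.0 CPM in KO, against 22.3 and 20.7 CPM in WT. Both KO libraries were above WT, and the rise was 1.49-fold (log2 fold change 0.57 ± 0.12 SE, edgeR adjusted p = 0.00477). It overlaps the antisense gene Gm20319, so its value is uncertain in the same way. Il1rl1, the receptor for IL-33, had the lowest level per length of the members. Its counts were 78 and 120 in KO, against 86 and 111 in WT, so the groups overlapped fully. The log2 fold change was -0.13 (95% confidence interval -0.80 to 0.54, edgeR adjusted p = 0.822), and it turned to 0.027 without WT replicate 2 and to 0.14 without KO replicate 1 (edgeR adjusted p = 0.984 and 0.814).

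Both IL-18 receptor chains fell. Il18rap, the signalling chain, had 1363 and 1558 counts in KO, against 3758 and 3762 counts in WT, or 51.3 and 57.7 CPM in KO, against 159 and 151 CPM in WT. The gene was 2.84-fold lower in KO (log2 fold change -1.50, 95% confidence interval -1.67 to -1.34, edgeR adjusted p = 3.47e-08). Il18r1, the binding chain, had 21.3 and 21.3 CPM in KO, against 46.3 and 43.3 CPM in WT. It was 2.11-fold lower in KO (log2 fold change -1.07 ± 0.11 SE, edgeR adjusted p = 1.52e-05), and for both chains the KO libraries were below the WT libraries. Per length, the FPKM of Il18rap was 1.72 and 1.94 times that of Il18r1 in the KO libraries, against 2.44 and 2.48 times in the WT libraries. Il1rl1, which lies next to Il18r1 on the chromosome, did not pass, as given above.

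Myd88, the adaptor below all of these receptors, had 117 and 127 CPM in KO, against 125 and 138 CPM in WT. The groups overlapped, and the log2 fold change was -0.11 (95% confidence interval -0.26 to 0.047, edgeR adjusted p = 0.325). Its exons overlap those of Acaa1a, a peroxisomal thiolase gene on the opposite strand with a log2 fold change of -0.13 (edgeR adjusted p = 0.156), so the Myd88 count is uncertain.

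**Figure D2:**
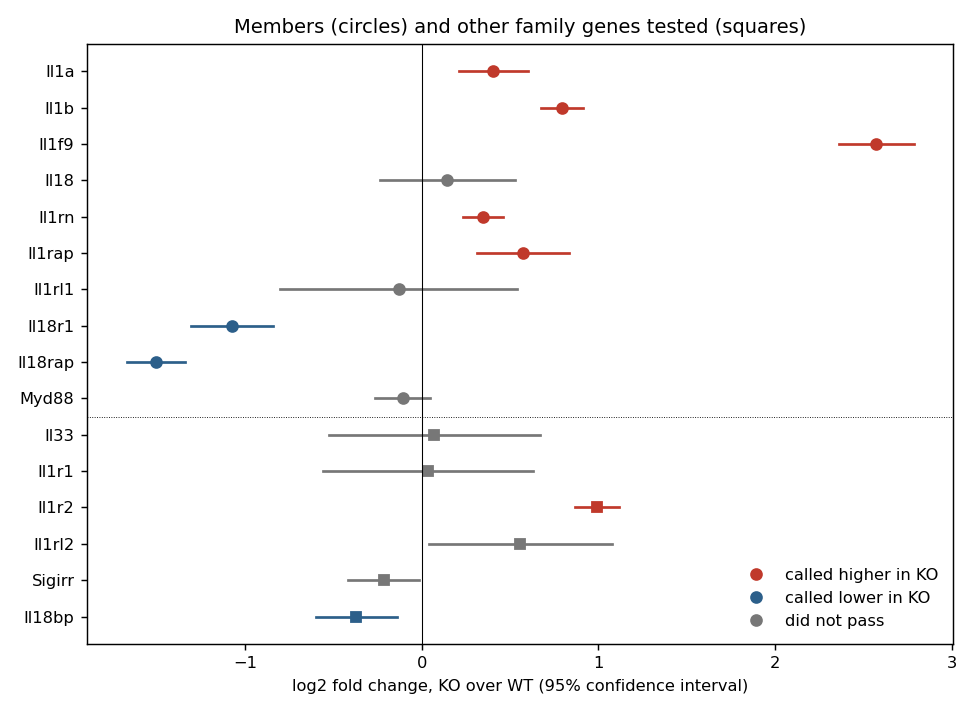
Log2 fold change, KO over WT, of the 10 members (circles) and of 6 other family genes (squares), with 95% confidence intervals and colours for the edgeR call. Il1f9 at 2.57 and Il18rap at -1.50 lie at the ends, and Il1r2 at 0.99 stands with the members that rose.

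Levels can be compared between members only per length, for which the deposited FPKM, which are scaled to gene length and library size, were used. Il1b had the highest level, at 326 and 343 FPKM in KO and 195 and 189 FPKM in WT, above 99.0% of listed genes in KO and 98.2% in WT. Il1rn came next, at 121 and 120 FPKM in KO and 92.3 and 96.3 FPKM in WT. In the KO libraries the order then ran through Il1f9, Myd88, Il1a, Il18, Il18rap, Il18r1 and Il1rap to Il1rl1, and no neighbours in that order overlapped. In the WT libraries Myd88 and Il18rap came after Il1rn, then Il1a, Il1f9, Il18, Il18r1, Il1rap and Il1rl1. There Il1f9 (10.9 and 11.7 FPKM) and Il18 (11.6 and 9.92 FPKM) overlapped, and no other neighbours did. Il1f9 thus held place 3 of 10 in KO and place 6 in WT, and Il18rap place 7 in KO and place 4 in WT. At 0.412 and 0.624 FPKM in KO and 0.506 and 0.621 FPKM in WT, Il1rl1 was below the group medians over all listed genes of 3.71 FPKM in KO and 3.78 FPKM in WT.

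**Figure D3:**
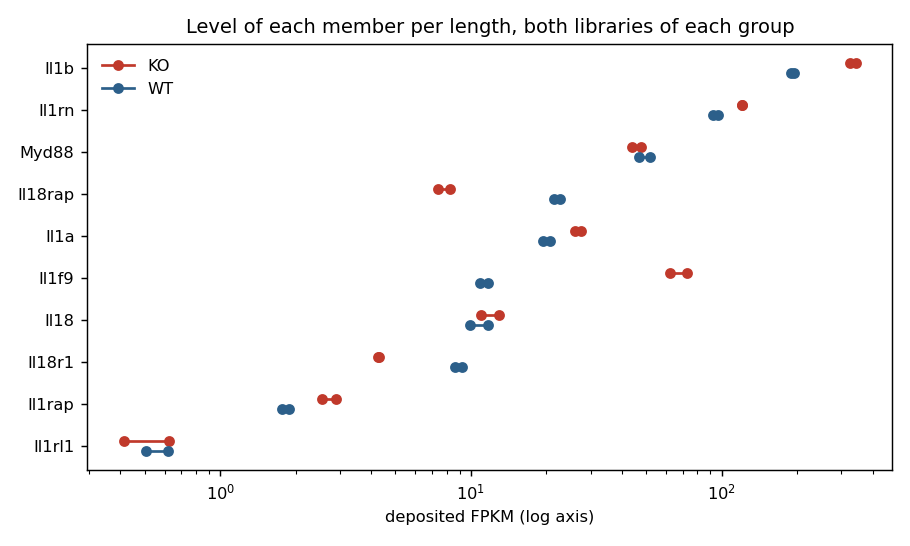
Deposited FPKM of each member (log axis), with both libraries of KO and of WT joined by a line, ordered by the WT level. Il1b lies highest in both groups, and Il1f9 and Il18rap are the members whose KO and WT points lie farthest apart.

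Other genes of the family were read from a list of 17 symbols, of which 6 were tested and the others were not analysed here (the list holds Il1f9 also under its name Il36g, and other ligand genes under both of their names). Il1r2, the decoy receptor that binds IL-1 without signalling, had 369 and 363 CPM in KO, against 179 and 190 CPM in WT. It was 1.99-fold higher in KO (log2 fold change 0.99 ± 0.057 SE, edgeR adjusted p = 1.02e-07), with no overlap. Il18bp, the secreted protein that neutralises IL-18, had 29.2 and 28.7 CPM in KO, against 35.8 and 38.9 CPM in WT. The log2 fold change of Il18bp was -0.37 (edgeR adjusted p = 0.0263), a call lost without WT replicate 1 or 2 and when scaling used library totals alone. Il18bp overlaps Numa1 on the opposite strand and is uncertain. Il1r1, the signalling IL-1 receptor, had 3.87 and 4.34 CPM in KO, against 4.01 and 4.0 CPM in WT, and did not pass (edgeR adjusted p = 0.949). The IL-36 receptor gene Il1rl2 had 6.51 and 7.08 CPM in KO, against 5.06 and 4.16 CPM in WT (log2 fold change 0.56, edgeR adjusted p = 0.123). Sigirr, which encodes an inhibitory receptor of the family, and Il33 had log2 fold changes of -0.22 and 0.071 (edgeR adjusted p = 0.127 and 0.894).

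Below the receptors, few genes passed. Of 24 tested signalling genes 1 was lower, 0 were higher and 23 did not pass, and their median log2 fold change was -0.078. The shares were 0% higher and 4.17% lower, against 10.1% and 11.0% of all genes tested, whose median was -0.0037. At an unadjusted p under 0.05 in edgeR, 1 was higher and 2 were lower, DESeq2 called 0 higher and 0 lower, and limma-voom called 0 higher and 1 lower. The gene that passed was Traf6, the ubiquitin ligase below the IRAK kinases, with 52.0 and 59.7 CPM in KO, against 72.9 and 64.3 CPM in WT. Its log2 fold change was -0.29 ± 0.095 SE (edgeR adjusted p = 0.0443). Traf6 was not called without WT replicate 1, without KO replicate 1, with DESeq2 or with library totals alone.

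Genes of cytokine processing and release moved both ways, with 4 of 25 tested members higher, 6 lower and 15 not passing, and a median of -0.11. For comparison, 10.1% of all genes tested were called higher and 11.0% lower. Mefv, which encodes the inflammasome sensor pyrin, was 1.68-fold higher in KO (47.7 ± 4.72 CPM in KO and 28.5 ± 3.51 CPM in WT). The pore-forming gasdermin gene Gsdme was 1.49-fold higher (78.2 ± 7.79 CPM in KO and 52.5 ± 1.35 CPM in WT), and Nlrp3, another inflammasome sensor, 1.48-fold higher (33.0 ± 5.81 CPM in KO and 22.3 ± 2.35 CPM in WT). Ninj1, whose product ruptures the plasma membrane of dying cells, was 1.20-fold higher. Capn2, a calpain subunit gene, was 1.39-fold lower and S100a13, which encodes a carrier in IL-1 alpha release, 1.36-fold lower. These 6 genes had edgeR adjusted p-values from 0.000215 for Capn2 to 0.0122 for Nlrp3. The other genes called in this list, given here outside the naming rule, were all lower. They were Aim2, Pycard, Gsdmd and Ctss, with log2 fold changes of -0.66, -0.28, -0.26 and -0.18 (edgeR adjusted p = 0.0216, 0.0125, 0.0251 and 0.0327). Nlrp3 and S100a13 were not called without WT replicate 2 (edgeR adjusted p = 0.0884 and 0.104). Casp1, the caspase that cleaves IL-1 beta and IL-18, given here outside the naming rule, had 82.5 and 80.3 CPM in KO, against 86.4 and 82.9 CPM in WT (edgeR adjusted p = 0.645). With library totals alone 3 genes of this list were lower, and without WT replicate 2 there were 2.

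Of 29 tested genes that IL-1 family cytokines and NF-kappaB are known to induce, 7 were higher and 4 lower in KO, 18 did not pass, and the median was 0.032. That was 24.1% higher and 13.8% lower, against 10.1% and 11.0% of all genes tested. Ptgs2, which encodes the prostaglandin synthase COX-2, had 277 and 266 CPM in KO, against 130 and 143 CPM in WT, a 1.99-fold rise (edgeR adjusted p = 2.80e-07). Saa3, an acute phase gene, was 1.87-fold higher, and Lcn2, a siderophore-binding protein that is also a neutrophil granule gene, 3.06-fold higher (edgeR adjusted p = 1.62e-06 and 1.09e-05). Ifng, the interferon gamma gene and a known output of the IL-18 receptor in T cells, had 89.4 and 89.5 CPM in KO, against 161 and 168 CPM in WT. It was 1.84-fold lower (edgeR adjusted p = 8.33e-07). Tnfaip3, which encodes the NF-kappaB inhibitor A20, was 1.61-fold lower, with 550 and 614 CPM in KO, against 966 and 911 CPM in WT (edgeR adjusted p = 6.34e-06). Nfkb2, 1.24-fold lower (edgeR adjusted p = 0.00157), overlaps Psd on the opposite strand and is uncertain.

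**Figure D4:**
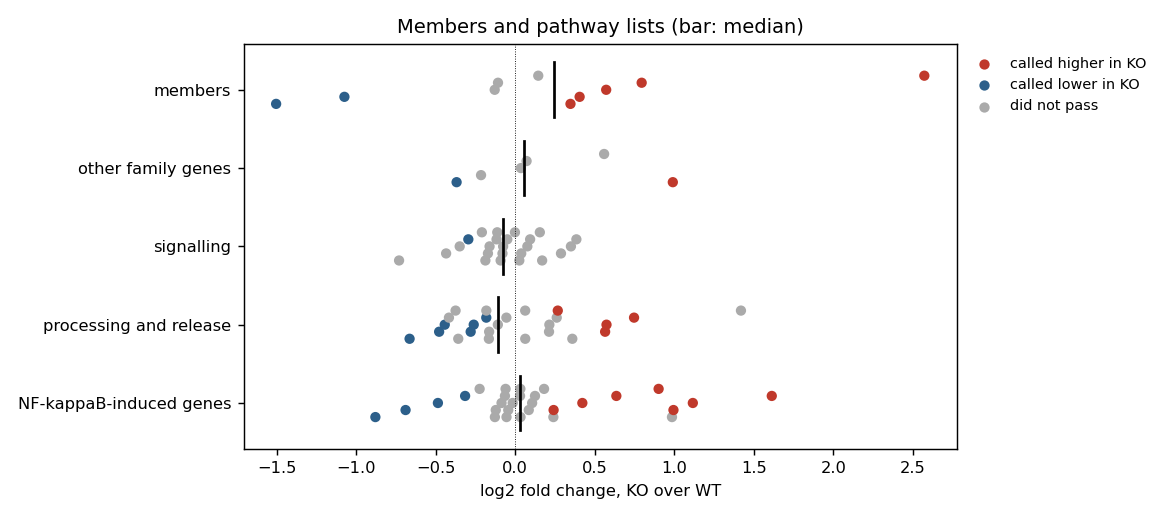
Log2 fold change, KO over WT, of each tested gene in the member list and in the 4 pathway lists. Points are genes, coloured by the edgeR call, and bars are medians. The 24 signalling genes cluster near a median of -0.078, while the 10 members reach from -1.50 to 2.57.

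Some lists of markers of other cell types also differed between KO and WT. Over all tested genes 10.1% were higher and 11.0% lower in KO. Neutrophil markers were higher in KO for 13 of 20 tested, with 0 lower (0 lower also at an unadjusted p under 0.05 in edgeR and with DESeq2 and limma-voom). Their summed level was 2420 and 2405 CPM in KO, against 948 and 969 CPM in WT. S100a8 and S100a9, calcium-binding proteins of neutrophils and monocytes, averaged 644 ± 4.37 and 472 ± 0.985 CPM in KO and 154 ± 6.66 and 112 ± 2.71 CPM in WT. Csf3r, the receptor of the neutrophil growth factor G-CSF, averaged 242 ± 6.85 CPM in KO and 98.4 ± 0.90 CPM in WT. Ly6g, a defining surface marker of mouse neutrophils, was near 0, at 0.521 CPM in KO and 0.411 CPM in WT. Monocyte and macrophage markers summed to 22760 and 23340 CPM in KO, against 22120 and 22960 CPM in WT, with 3 of 17 higher and 4 lower, and Csf1r, the growth factor receptor of macrophages, averaged 611 CPM in KO and 601 CPM in WT. The part of these cells in the results was not tested.

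Set against the neutrophil list in the same library, the members that rose parted. S100a8 and S100a9 averaged 644 and 472 CPM of a list mean of 2412 CPM in KO. In WT they averaged 154 and 112 CPM of 958 CPM. Clec4d, also on this list, rose 1.32-fold, less than Il1b at 1.73-fold and Il1rap at 1.49-fold. This was about as much as Il1a at 1.32-fold and more than Il1rn at 1.27-fold. The ratios to this list therefore depend on the genes in it. Il1b had 26.5 and 28.1 counts per 100 neutrophil list counts in KO, against 40.8 and 38.5 in WT. Il1rn had 28.5 and 28.7 in KO, against 56.0 and 57.1 in WT, and Il1a had 2.30 and 2.22 in KO, against 4.21 and 4.38 in WT. Il1rap had 1.40 and 1.25 in KO, against 2.35 and 2.14 in WT. These 4 genes were thus lower in KO per neutrophil list count although higher in CPM, and Il18, which did not pass, had 0.482 and 0.576 in KO, against 1.32 and 1.09 in WT. Il1f9 had 5.10 and 4.41 counts per 100 neutrophil list counts in KO, against 1.96 and 2.06 in WT. It was the only member called higher that was higher in KO both in CPM and per neutrophil list count. Per 100 counts of the monocyte and macrophage list, Il1b had 2.82 and 2.90 in KO, against 1.75 and 1.62 in WT, and Il1f9 had 0.542 and 0.455 in KO, against 0.0842 and 0.0870 in WT. The KO mean over the WT mean on this scale was 1.30 for Il1a, 1.24 for Il1rn and 1.45 for Il1rap. Every member called higher was thus higher in KO per count of this list, with no overlap of the groups. The list averaged 23050 CPM in KO and 22540 CPM in WT, of which Lyz2 held 11950 and 12080 CPM. These ratios therefore stay near the differences in CPM, and they also depend on the genes in the list.

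T cell markers were lower in KO for 10 of 14 tested and higher for 1, which was Lat, and their summed level was 3131 and 3095 CPM in KO, against 4261 and 4338 CPM in WT. Per 100 counts of this list Il18rap had 1.64 and 1.87 in KO, against 3.72 and 3.47 in WT. Il18r1 had 0.680 and 0.687 in KO, against 1.09 and 0.999 in WT. Both IL-18 receptor chains were therefore lower in KO per T cell list count as well as in CPM, and the groups did not overlap. These ratios also depend on the genes in the list, whose log2 fold changes ran from -1.02 for Cd6 to 0.42 for Lat. The CD8 chain genes Cd8a and Cd8b1 had -0.93 and -0.96. Il18r1 had -1.07, with a confidence interval of -1.31 to -0.84 that holds the values of Cd6, Cd8a and Cd8b1. Il18rap, at -1.50, lay below every tested gene of the list. Levels per count of the CD8 genes were not tested. NK cell markers, on cells that also carry the IL-18 receptor, summed to 40.8 and 37.2 CPM in KO, against 106 and 109 CPM in WT. Of these markers 2 of 4 were lower, and Klre1 and Klri2 made up most of the sum. Klrb1c, which encodes the NK receptor NK1.1, was near 0, at 0.823 CPM in KO and 0.717 CPM in WT.

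For Il1rl1, whose receptor is common on mast cells and regulatory T cells, the mast cell and basophil list summed to 328 and 304 CPM in KO, against 133 and 145 CPM in WT, with 3 of 5 tested higher. Hdc, also on the neutrophil list, and Cpa3 made up most of that sum, and the chymase gene Mcpt4 was listed at 0 in 2 libraries. Kit, of this list too, had 19.4 and 14.5 CPM in KO, against 13.1 and 15.0 CPM in WT, and did not pass (edgeR adjusted p = 0.309). The lowest log2 fold change among the tested genes of the list was -0.78, and 0 were called lower. Tpsb2, on the same list and also at 0 in 2 libraries, was called higher, with a log2 fold change of 8.61 (edgeR adjusted p = 0.000756). Foxp3, the defining factor of regulatory T cells, averaged 10.5 ± 0.585 CPM in KO and 9.57 ± 2.34 CPM in WT (edgeR adjusted p = 0.694). For Il1f9, a gene well known from keratinocytes, the keratinocyte and epithelial list summed to 26.5 and 36.2 CPM in KO, against 22.4 and 23.5 CPM in WT, with 1 of 5 tested higher. The gene called higher was Cdh1, with 15.4 ± 3.48 CPM in KO and 9.07 ± 0.354 CPM in WT (edgeR adjusted p = 0.012). Krt14, a defining keratin of basal keratinocytes, had 4 and 24 counts in KO and was listed at 0 in both WT libraries. It did not pass the filter on low counts and was not tested. Of the other marker lists, dendritic cell genes summed to 4184 and 3971 CPM in KO, against 3719 and 4146 CPM in WT, with 6 of 12 higher and 1 lower. B cell genes summed to 27.7 and 23.0 CPM in KO, against 13.5 and 13.8 CPM in WT, with 2 of 5 higher. Fibroblast and endothelial genes summed to 637 and 697 CPM in KO, against 603 and 561 CPM in WT, with 2 of 8 higher and 1 lower. Genes of CD4 and regulatory T cells summed to 767 and 778 CPM in KO, against 951 and 978 CPM in WT, with 2 of 10 higher and 4 lower. Within that list Cd4, the co-receptor gene of helper and regulatory T cells, went against the sum: it had 63.1 and 67.7 CPM in KO, against 26.9 and 32.2 CPM in WT, a 2.21-fold rise (edgeR adjusted p = 7.42e-06). The mitochondrial share of counts was 6.57% and 6.99% in KO, against 10.4% and 10.2% in WT, and its part in the results was not tested.

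**Figure D5:**
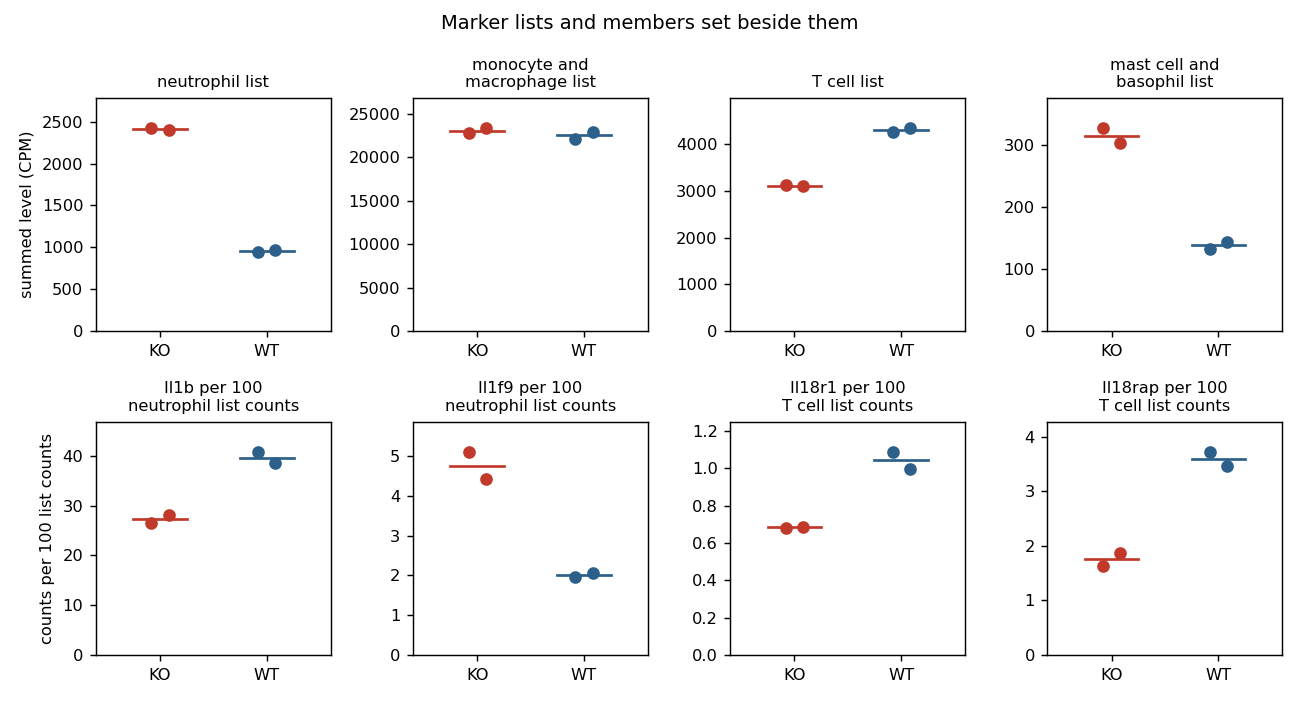
Upper row, summed CPM of the neutrophil, monocyte and macrophage, T cell, and mast cell and basophil marker lists in each library, KO left and WT right. Lower row, counts of Il1b and Il1f9 per 100 neutrophil list counts and of Il18r1 and Il18rap per 100 T cell list counts. Points are libraries and lines are means. Il1b per neutrophil list count is lower in KO (26.5 and 28.1) than in WT (40.8 and 38.5), and Il1f9 is higher (5.10 and 4.41, against 1.96 and 2.06).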

How the data were processed

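RNA of sorted tumour CD8 T cells was sequenced in 4 libraries, 2 KO and 2 WT. A table with counts and FPKM for 14082 genes was deposited for each. Tools named in the submitters' processing notes are Trim Galore 0.4.4 and, without versions, Bowtie2, featureCounts, edgeR and DESeq2. Their roles are not stated, and mm10 is named as the genome build. Which annotation was used and whether libraries were stranded is not given in the sources used here. Counts as deposited are whole reads per gene, per the file headers, with at least 20 over the 4 libraries for each listed gene. Deposited FPKM, per the file headers, served to set levels between genes and entered no test.

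The test was the quasi-likelihood test of edgeR 4.0.16 (R 4.3.3) with TMM scaling, a robust fit and the default filterByExpr, whose minimum is 10 counts in a library and 15 in all. P-values were adjusted by Benjamini-Hochberg over all 13358 genes tested, with a threshold of 0.05. Standard errors were derived from the F statistic, and ± gives the SD over 2 libraries unless marked SE. Counts of the libraries of a group differed beyond sampling noise (chi-square per degree of freedom 9.72 in KO and 7.39 in WT), so they were kept apart. The edgeR step was tested on simulated data, with an outcome that is not reported here. Alternatives were RLE scaling, library totals alone, no filter or a stricter one, a block for the replicate number, DESeq2 1.42.0, limma-voom (limma 3.58.1) and leaving out each library.

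The members and gene lists were chosen with earlier results of these data known. Genes named were every member, up to 6 called genes of each pathway list by p, the tested receptors and decoys, and of marker lists up to 3 genes of highest CPM with defining markers, some lists being given as sums alone. Positions and overlaps are from GENCODE M21 on mm10, and promoter windows from RefSeq, matched by symbol for all 10 members.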

Additional observations from a re-analysis of the deposited data

How the results depend on the processing

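All 7 called members kept their direction under each of the 11 alternatives, and 6 of them also their call. Il1a was the exception, at 0.36 without WT replicate 1 and at most 0.45 when another library was left out. Il1rl1, which did not pass, turned to 0.027 and 0.14 without WT replicate 2 and KO replicate 1 and was -0.46 without KO replicate 2. Over the runs that left out 1 library, members called higher ranged from 4 to 5 and members called lower stayed at 2. In the same runs genes called over the whole table ranged from 714 to 1605 higher and from 831 to 1787 lower, against 1354 and 1472. With library totals alone, which moved the median of all genes to 0.081, 2105 were higher and 1013 lower, and higher calls made up 67.5% of all calls, against 47.9%. Signalling genes called higher numbered 1 with RLE, 3 with library totals alone, 1 with the stricter filter and 0 to 1 when a library was left out. Signalling genes called lower numbered 0 with library totals alone or DESeq2, 2 with the stricter filter and 0 to 4 when a library was left out. Other family genes called lower numbered 0 with library totals alone and 0 to 1 when a library was left out. Processing genes called lower numbered 3 with library totals alone and 2 to 7 when a library was left out. The cause of these shifts was not tested.

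The replicate number as a block gave 1393 higher and 1522 lower genes and the same 5 and 2 member counts. Samples that share a number showed a correlation of deviations of -0.015 over genes. This 1 value cannot tell whether a shared number marks a shared step, and the labels do not say what the numbers mean. Of the named genes outside the members that did not pass, 7 changed the sign of their log2 fold change over the runs that left out 1 library. Their ranges were -0.049 to 0.11 for Il1r1, -0.27 to 0.55 for Klrb1c, -0.28 to 0.77 for Ly6g, -0.089 to 0.41 for Foxp3, -0.018 to 0.064 for Csf1r, -0.063 to 0.40 for Smad4 and -0.064 to 0.032 for Lyz2, which was at 0.071 with library totals alone. Il1rl1 had 78 to 120 counts a library and Il18 265 to 374, and both had intervals that span 0. For a single value, 2 libraries a group cannot reach an exact permutation p under 0.05.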
